A study of Danio rerio with 19 samples.

Results

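The transcription factor genes gata2a, gata3, tfap2a, tfap2c and tp63 regulate the non-neural ectoderm, the outer germ layer territory that forms epidermis and borders the neural plate. They were taken by name from RNA-seq tables of zebrafish gametes and embryos, and all 5 were found among 14244 gene names. Each stage was measured in 1 library, from sperm, egg, 1k-cell embryos (a mid-blastula) or germ ring embryos (the onset of gastrulation). All came from the Tubingen strain with no mutation or treatment named. The labels describe RNA from whole homogenized embryos, made into libraries by poly-T selection, so no ectoderm was isolated. Fewer cells of a type and less RNA per cell cannot be told apart in such samples.

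In the gastrula, bone morphogenetic protein (BMP) signalling is high on the ventral side and directs ectoderm toward epidermis, while BMP antagonists from the dorsal organizer leave the dorsal ectoderm neural. GATA factors bind DNA through zinc fingers; gata2a and gata3 are known from ventral ectoderm, and gata2a also from blood and vessel precursors. The AP-2 factors encoded by tfap2a and tfap2c act redundantly in zebrafish in neural crest, placodes and epidermis. The transcription factor encoded by tp63 is required for the basal keratinocytes of the skin, and its short form, which lacks the amino-terminal activation domain, is the known ventral ectoderm product.

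The values are read counts per gene that the authors scaled by 1 factor per library, called normalized read counts below. They are not divided by transcript length, so fold changes are given only between libraries for the same gene. Sums over markers, and levels of different genes set side by side, mix transcript lengths. The libraries held 9241829 to 24256918 reads over all genes, and 3 reads correspond to 2.98 in sperm, 5.95 in egg, 2.85 in 1k-cell embryos and 4.52 at germ ring. Intervals in brackets are exact 95% counting intervals; they cover counting error only, and reads amplified by PCR are not independent molecules. With 1 library per stage there is no replicate check and no p-value. A gene is called higher or lower at a 2-fold change of the normalized read count plus 1, if it reached 10 in either library, and every one of the 5 genes reached 10 in all 4 libraries.

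Markers of other tissues were counted in the gamete libraries. Of all 14244 gene names, 12319 reached 10 in sperm and 9640 in egg, so reaching 10 alone does not set a marker apart. In the library labelled sperm, 12 of 13 measured red blood cell markers reached 10. The 13 had a summed normalized read count of 37865, of which hbaa1 made up 34337. All 12 testis somatic markers and all 11 endothelium and white blood cell markers reached 10 in sperm too. So did all 8 ovarian follicle markers, with a sum of 741, and 22 of 23 epidermis structural markers. In the egg library, 19 of the 23 epidermis markers reached 10, with a summed value of 154988. There 5 of 12 testis somatic markers reached 10, with a sum of 16916, of which cyp11a1 made up 13986 and cyp17a1 2709. These 2 genes also had 4459 and 5533 in 1k-cell embryos and 3541 and 2233 at germ ring. The testis markers amh, insl3, nr5a1a, star and wt1a had no read in egg. Also at 10 or more in egg were 6 of 11 endothelium and white blood cell markers, 1 of 8 follicle markers and 1 of 13 red blood cell markers. The 23 epidermis markers summed to 22926 in sperm, 27505 in 1k-cell embryos, where cdh1, the E-cadherin gene, made up 20074 of it, and 280355 at germ ring.

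The GATA factor gene gata2a had a normalized read count of 168 in sperm, 19.8 in egg, 17.1 in 1k-cell embryos and 1243 at germ ring. Germ ring was the high library, and the low ones were egg, on 10 reads, and 1k-cell, on 18. Germ ring was 72.6-fold above 1k-cell embryos (45.7 to 123) and 7.40-fold above sperm (6.27 to 8.79), and egg was 8.46-fold below sperm (ratio 0.118, 0.0557 to 0.223). The 1k-cell to egg ratio was 0.862, with an interval of 0.377 to 2.09 that includes no difference.

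For gata3 the normalized read counts were 1669 in sperm, 65.5 in egg, 18.1 in 1k-cell embryos and 3718 at germ ring. The gene was well represented in both the sperm library (1680 reads) and the germ ring library (2468 reads) and low between them. Germ ring was 2.23-fold above sperm (2.09 to 2.37), egg 25.5-fold below sperm (18.1 to 37.1) and 1k-cell 3.63-fold below egg (2.00 to 6.75). All 3 steps of this order had intervals that exclude 1.

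The AP-2 gene tfap2a had 47.7 in sperm, 183 in egg, 104 in 1k-cell embryos and 2254 at germ ring. It had 48 to 109 reads in each library before gastrulation and was lowest in sperm. Germ ring was 12.3-fold above egg (10.00 to 15.4), 1k-cell 1.76-fold below egg (1.32 to 2.35) and 1k-cell 2.17-fold above sperm (1.53 to 3.12).

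Its paralog tfap2c had 28.8 in sperm, 371 in egg, 18.1 in 1k-cell embryos and 3526 at germ ring. The values alternated, with egg and germ ring high and sperm and 1k-cell low. Germ ring was 9.50-fold above egg (8.18 to 11.1) and egg 12.9-fold above sperm (8.68 to 19.8). The 1k-cell value, on 19 reads, was 1.59-fold below the sperm value, on 29 reads, with an interval of 0.864 to 3.01 that includes no difference. A second entry of the same name held no read in any library.

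The keratinocyte regulator gene tp63 ran the other way: 253 in sperm, 453 in egg, 271 in 1k-cell embryos and 72.3 at germ ring. It was lowest in the library in which the other 4 genes were highest. The 1k-cell level was 1.67-fold below egg, and germ ring was 3.50-fold below sperm (2.57 to 4.87). The 1k-cell value was 1.07-fold the sperm value (0.900 to 1.27), and their order turned under upper-quartile scaling (0.881-fold) and under equal-total scaling (0.973-fold).

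**Figure D1:**
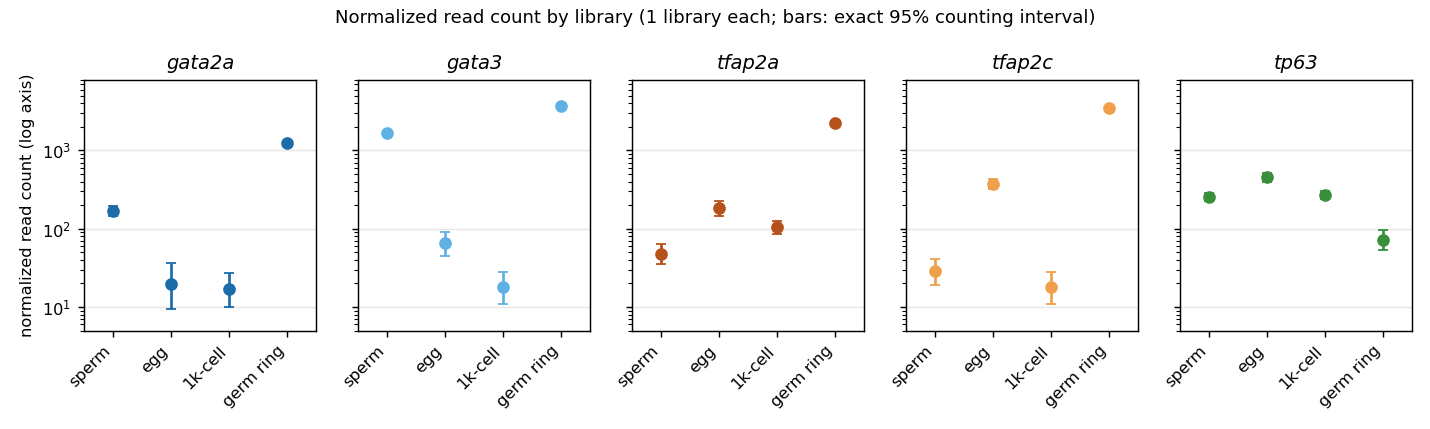
Normalized read count (log axis) of each of the 5 genes in the sperm, egg, 1k-cell and germ ring libraries, 1 library each; bars are exact 95% counting intervals. Germ ring is the highest point for gata2a (1243), gata3 (3718), tfap2a (2254) and tfap2c (3526) and the lowest for tp63 (72.3).

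The tables list tp63 under 3 entries with different values, and the one with the highest total is used above. The tables do not say which transcripts each entry counts. At germ ring against 1k-cell embryos the 3 entries gave 72.3 against 271, 33.1 against 148 and 21.1 against 102. All 3 were lower at germ ring, with ratios of 0.267 (0.192 to 0.363), 0.223 (0.136 to 0.351) and 0.207 (0.110 to 0.363). In 1k-cell embryos against egg they did not share a direction beyond counting error: the ratios were 0.599 (0.501 to 0.716), 0.869 (0.664 to 1.14) and 1.07 (0.753 to 1.53). Egg against sperm gave 1.79 (1.49 to 2.14), 1.41 (1.06 to 1.87) and 1.16 (0.792 to 1.67).

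**Figure D2:**
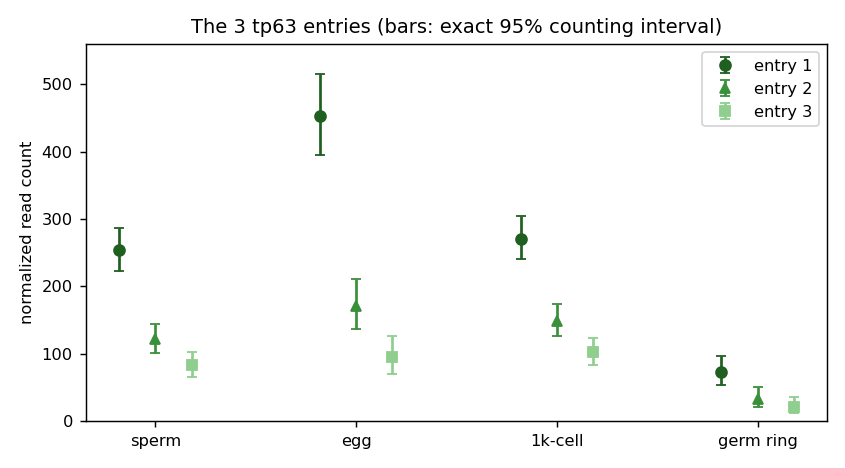
Normalized read count (linear axis from 0) of the 3 entries named tp63 in each library; bars are exact 95% counting intervals. All 3 entries are lowest at germ ring, at 72.3, 33.1 and 21.1.

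The comparison of germ ring with 1k-cell embryos spans activation of the embryo's own genome and the start of gastrulation. Of the 5 genes, 4 were at least 2-fold higher at germ ring, while 16.0% of the 10917 genes compared were. The remaining gene, tp63, was at least 2-fold lower, as were 34.2% of all genes. The log2 ratios were 6.10 for gata2a, 7.61 for gata3, 4.43 for tfap2a and 7.53 for tfap2c, and -1.89 for tp63, beside a median of -0.43 over all genes. In linear terms gata3 was 206-fold higher (132 to 342), tfap2c 195-fold (125 to 325), gata2a 72.6-fold and tfap2a 21.7-fold (17.9 to 26.7), while tp63 was 3.75-fold lower (2.75 to 5.20). The ratios of gata3 and tfap2c each exceeded those of 98.6% of genes, that of gata2a 97.6% and that of tfap2a 95.5%. For tp63, 15.1% of genes had a lower ratio, and its ratio lay between the 5th percentile (-2.64) and the 25th (-1.41). Median-of-ratios and upper-quartile scaling shift this comparison by 0.52 on the log2 scale, and all 5 calls held under both. With these scalings 23.7% and 23.8% of all genes were higher and 22.3% and 22.2% lower. The epidermis structural markers also differed between these libraries, with 16 of 21 at least 2-fold higher at germ ring and none lower; among them krt4, a keratin gene of the outer embryonic layer, had 60446 at germ ring and 19.0 in 1k-cell embryos. Their part in the result was not tested.

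Germ ring against egg sets the onset of gastrulation against the poly-T selected RNA of the egg library. The same 4 genes were at least 2-fold higher, where 48.1% of 10971 genes were, and tp63 was lower, where 19.8% were. The level was 62.6-fold higher for gata2a (33.9 to 131), 56.8-fold for gata3 (40.3 to 82.7), 12.3-fold for tfap2a and 9.50-fold for tfap2c. Relative to the median log2 ratio of all genes (0.88), these were 5.02 for gata2a, 4.92 for gata3, 2.74 for tfap2a and 2.36 for tfap2c. For tp63 germ ring was 6.26-fold lower (4.57 to 8.73), and 6.54% of genes had a lower ratio. Median-of-ratios scaling shifts this comparison by -0.76 and upper-quartile scaling by -0.82, with the 5 calls the same and 34.7% and 33.9% of all genes higher and 32.1% and 33.0% lower. It shares the germ ring library with the comparison before it, so their values are not independent.

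In 1k-cell embryos against egg, none of the 5 genes was at least 2-fold higher, where 54.7% of 10685 genes were. At least 2-fold lower were tfap2c and gata3, 2 of 5, where 12.5% of all genes were. The value of tfap2c was 20.5-fold lower (12.8 to 34.9), at 18.1 in 1k-cell embryos against 371 in egg, and 2.34% of genes had a lower ratio. That of gata3 was 3.63-fold lower, at 18.1 against 65.5. The log2 ratios of gata2a, tfap2a and tp63 were -0.20, -0.81 and -0.74, all within 2-fold, but below the median of all genes, which was 1.24. The scaling sets the calls of gata2a, tfap2a and tp63, while tfap2c and gata3 were lower under each scaling. Median-of-ratios scaling shifts this comparison by -1.28 and upper-quartile scaling by -1.34 on the log2 scale, and under either one all 5 genes were at least 2-fold lower, with gata2a at -1.43 and -1.48, tfap2a at -2.09 and -2.15 and tp63 at -2.02 and -2.08. Under these scalings 33.8% and 35.1% of all genes were at least 2-fold lower, so the background is higher too. The epidermis structural markers differed in the same direction as tfap2c, with 16 of 19 at least 2-fold lower and none higher, and 7 of the 23 measured at 0 in 1k-cell embryos, among them krt15 and cldni; their part in the result was not tested.

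In egg against sperm tfap2a and tfap2c, the AP-2 pair, passed 2-fold upward, as did 14.3% of 12443 genes, and gata2a and gata3 passed it downward, as did 61.3%. The value of tfap2c was 371 in egg and 28.8 in sperm, 12.9-fold higher, and its ratio exceeded that of 99.3% of genes. That of tfap2a was 3.83-fold higher (2.67 to 5.55) and exceeded 94.1%. The tp63 ratio was 1.79 as deposited, within 2-fold, and its log2 value of 0.83 became 2.10 under median-of-ratios, 1.90 under upper-quartile and 1.03 under equal-total scaling. The gata3 value was 25.5-fold lower and 15.8% of genes had a lower ratio; gata2a was 8.46-fold lower and 33.7% of genes had a lower ratio. Median-of-ratios scaling shifts this comparison by 1.26 and upper-quartile scaling by 1.06, and the calls of these 4 genes were the same under both, where 29.7% and 26.8% of all genes were higher and 43.0% and 46.0% lower. In the same comparison 15 of 22 epidermis markers passed 2-fold upward in egg and 4 downward, with the keratin gene krt5 at 109093 in egg and 6201 in sperm. All 12 red blood cell markers and all 8 ovarian follicle markers past the floor were at least 2-fold lower in egg. So were 10 of 12 testis somatic markers and 10 of 11 endothelium and white blood cell markers, where 61.3% of all genes were. In egg, 1 of 13 measured red blood cell markers and 1 of 8 follicle markers reached 10. A marker under 10 in egg passed the floor only through sperm, so these counts were largely fixed by the floor. The follicle marker foxl2a, listed as foxl2, had 10.9 in sperm and no read in egg. Its bound is 1.84-fold, so its call rests on the added 1. The part of these cell types in the gamete values of the 5 genes was not tested.

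**Figure D3:**
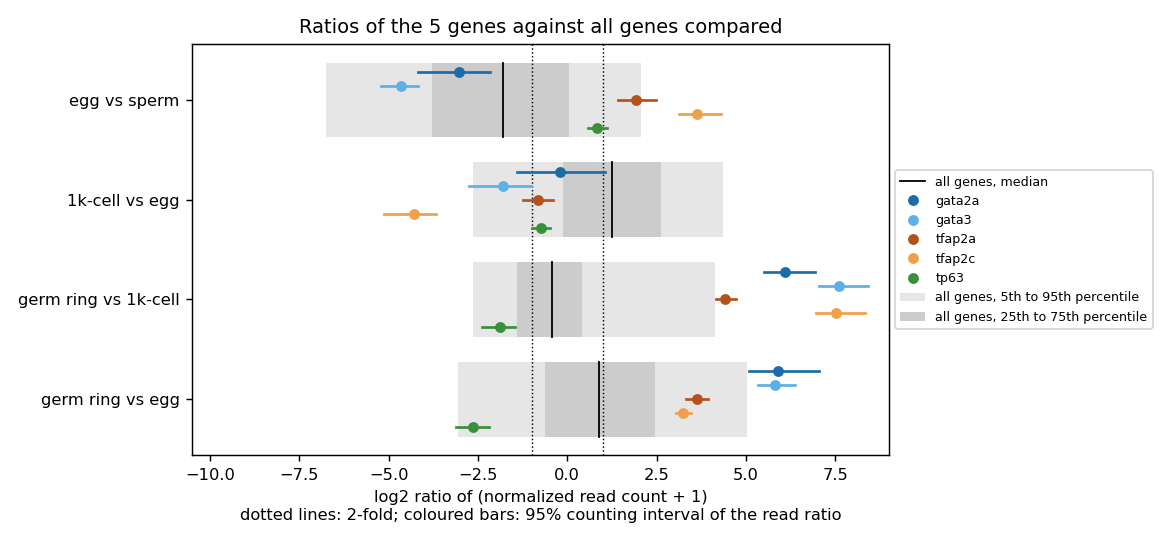
Log2 ratio of the normalized read count plus 1 for each of the 5 genes in the 4 comparisons, with 95% counting intervals of the read ratio as coloured bars, over grey bands that span the 5th to 95th and the 25th to 75th percentiles of all genes compared (black line: median). In germ ring vs 1k-cell, gata2a, gata3, tfap2a and tfap2c lie above the 95th percentile of 4.14 and tp63 lies at -1.89.

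Among the other GATA genes, gata5, known from endoderm and heart, had 2519 at germ ring and 1.90 in 1k-cell embryos. That is 1325-fold higher over 2 reads, with an interval of 366 to 10948. The duplicate of gata2a, gata2b, known from blood stem cells, had 112 in sperm, 806 in egg, 573 in 1k-cell embryos and 152 at germ ring. It was 3.77-fold lower at germ ring than in 1k-cell embryos (ratio 0.265, 0.213 to 0.328), while gata2a was 72.6-fold higher. The red blood cell factor gata1a had 84.4 in sperm and no read in egg, 1k-cell or germ ring, and gata4, another endoderm and heart gene, had 29.8 in sperm and no read in the other libraries. A count of 0 allows a value of up to 5.95 in egg, 2.85 in 1k-cell embryos and 4.52 at germ ring. Entries named gata1b and gata6 were not found and are not analysed here.

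Within the AP-2 family no member besides tfap2a and tfap2c was at least 2-fold higher at germ ring than in 1k-cell embryos. For tfap2b, known from kidney and neural tissue, the values were 18.1 at germ ring and 134 in 1k-cell embryos, 7.41-fold lower. For tfap2d they were 25.6 and 105, 4.08-fold lower, on 17 and 110 reads. The fifth gene of the family, tfap2e, known from pigment cells, had 78.5 in sperm, 65.5 in egg, 1.90 in 1k-cell embryos and no read at germ ring. It was therefore at least 14.5-fold lower at germ ring than in egg.

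The tp63 paralog tp73 had 15.1 at germ ring and 12.4 in 1k-cell embryos, on 10 and 13 reads, and the interval of the ratio (0.479 to 3.01) includes no difference. In sperm tp73 had 138, its highest value.

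**Figure D4:**
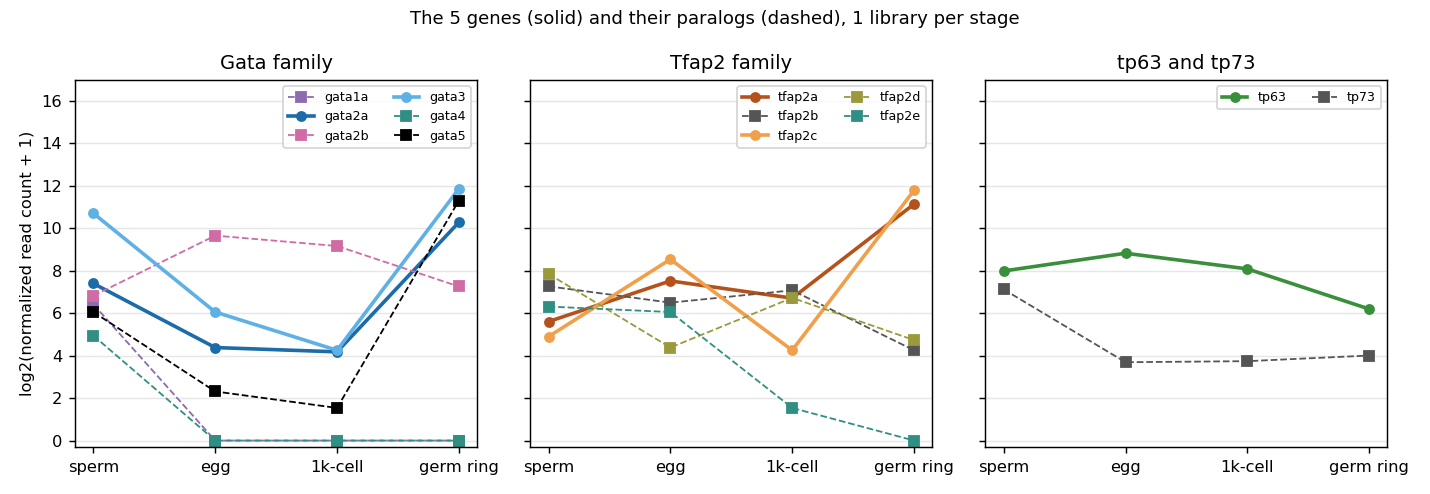
Log2 of the normalized read count plus 1 by library for the measured Gata and Tfap2 genes and for tp63 and tp73, with the 5 genes as solid lines and their paralogs as dashed lines; the lines only join the 1 library of each stage. At germ ring gata2a, gata3 and gata5 lie high and gata1a and gata4 at 0, and of the Tfap2 genes tfap2a and tfap2c lie above the other 3.

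Other genes of the ectoderm and of BMP signalling were counted in lists that do not include the 5 genes. Of 25 other ectoderm transcription factors 22 were measured and 15 passed the floor at germ ring against 1k-cell embryos. Of the 15, 9 were at least 2-fold higher, 3 lower and 3 within 2-fold, where 16.0% of all genes were higher and 34.2% lower. The list's log2 median was 2.45, beside -0.43 for all genes. With median-of-ratios or upper-quartile factors the counts were 10 higher and 1 lower of 14. Of all genes, 23.7% and 23.8% were then higher and 22.3% and 22.2% lower. By log2 of the value plus 1, the highest ratios belonged to msx1a, a BMP-responsive homeobox gene listed under its older name msxe, with 34.7 at germ ring and no read in 1k-cell embryos (at least 12.1-fold higher), and to foxi1, a placode and ear regulator, with 690.04 and 29.5, 23.4-fold higher (16.3 to 34.9). The place of msx1a rests on the added 1, since its bound is below the fold of foxi1 and of klf2b, a Kruppel-like factor gene (15.9-fold, 13.7 to 18.5). The lowest were dlx6a, a distal-less homeobox gene, with 146 and 940.3 (6.43-fold lower), and dlx4b, of the preplacodal field, with 3.01 and 10.5, on 2 and 11 reads and with a ratio interval of 0.0310 to 1.32 that includes no difference.

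The neural ectoderm list had all 27 genes measured and 22 past the floor in this comparison. Of these, 15 were at least 2-fold higher at germ ring and 6 lower, where 16.0% of all genes were higher and 34.2% lower. The list's median on the log2 scale was 3.37 (3.13 when genes without reads are set to their bound). On the same scale its highest members were the SoxB1 gene sox19a, with 19485 at germ ring and 39.9 in 1k-cell embryos (488-fold higher, 361 to 677), and the hindbrain gene gbx1, with 297 and no read (at least 104-fold higher). That bound is below the fold of zic2b (271-fold, 226 to 328), so the place of gbx1 also rests on the added 1. The eye and forebrain gene six3a had 7.53 and 129, 17.2-fold lower, and otx1, a head gene listed as otx1b, had 1602 and 15672, 9.79-fold lower. Genes of both ectoderm territories were higher in the same whole-embryo library.

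Of 37 BMP pathway genes 34 were measured and 32 passed the floor. At germ ring against 1k-cell embryos 20 were at least 2-fold higher, 3 lower and 9 within 2-fold, at a log2 median of 3.15. The shares of all genes were 16.0% higher and 34.2% lower. The ventral homeobox genes eve1 and vent had the highest ratios of the value plus 1. The eve1 value was 1767 at germ ring, without a read in 1k-cell embryos, which is at least 620-fold higher, a bound below the 767-fold (389 to 1778) of the BMP antagonist gene chrd, listed as chd. The vent value was 3281 at germ ring, over 1 read in 1k-cell embryos, a ratio of 3451 with an interval of 619 to 136387. The lowest ratios belonged to the ligand gene gdf6a (105 at germ ring and 817 in 1k-cell embryos, 7.74-fold lower) and the type I receptor gene bmpr1ba (289 and 2201, 7.61-fold lower). Each of these 3 lists held genes in both directions, as the 5 genes did.

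**Figure D5:**
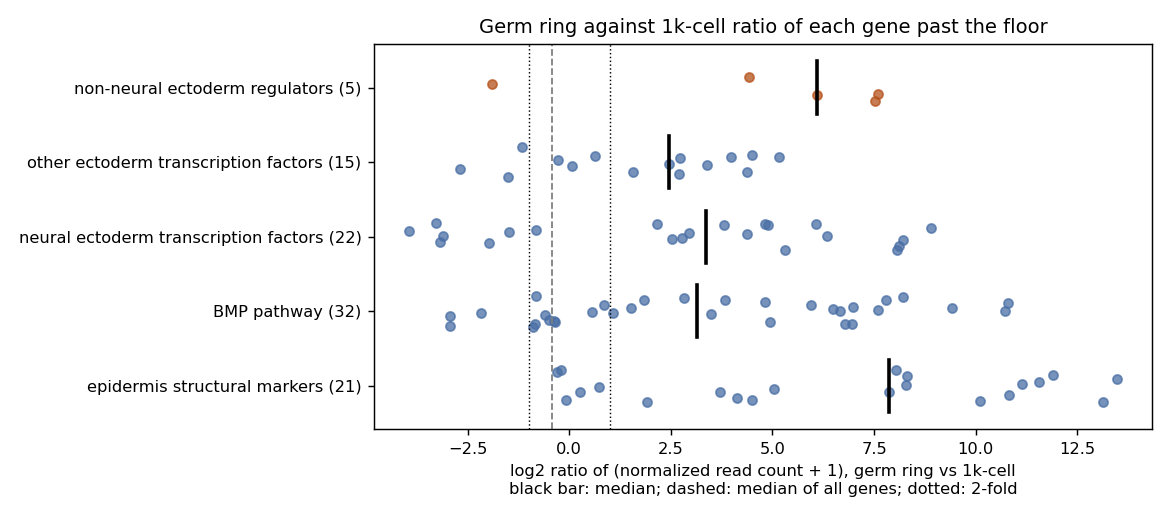
Log2 ratio of the normalized read count plus 1, germ ring vs 1k-cell, for each gene past the floor in 5 groups of genes (number in brackets), with the median of each group as a black bar, the median of all genes (-0.43) as a dashed line and 2-fold as dotted lines. The medians are 6.10 for the 5 genes, 2.45 for other ectoderm factors, 3.37 for neural factors, 3.15 for BMP pathway genes and 7.86 for epidermis markers.

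Genes with the most similar course were found by the distance between log2 levels over the 4 libraries, after each gene's mean was subtracted. The search covered 9400 names that reached 10 in at least 1 library. Names of clone type, such as those that start with zgc or si, were left out of the search and of its counts. This is a description over 4 points, all from the same libraries. The nearest to gata2a were slc14a2, a urea transporter gene, at a distance of 0.19 on the log2 scale, olig4 at 0.37, yy1a at 0.44, the caudal homeobox gene cdx4 at 0.54 and the ligand gene bmp4 at 0.57. Of these, slc14a2 had 64.8 at germ ring and no read in egg or 1k-cell embryos. The nearest to gata3 were the Notch ligand gene dlc (0.56), e2f7 (0.64), rasgef1bb (0.72), cyr61 (0.75) and hsp70l (0.87). In each of these 10 genes the sperm value lay below germ ring and above egg and 1k-cell embryos, though for slc14a2 and olig4 it was 6.95 and 8.94, under the floor of 10. The 10 were picked for nearness to gata2a or gata3, which have this order, so sharing it is no separate result.

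For tfap2a the nearest were the small GTPase gene rab25 (0.33), mmp30 (0.61), znf185 (0.87), the ephrin gene efna1b (0.87) and her8a (0.89). For tfap2c none of the 9400 names searched lay within a distance of 1 and 7 lay within 2. The nearest to it were znf750 (1.22), the splicing regulator gene esrp1 (1.37), vgll4l (1.61), the vitamin D hydroxylase gene cyp24a1 (1.80) and bcar3 (1.87). Like tfap2c, znf750 had 45.6 in egg, no read in 1k-cell embryos and 539 at germ ring, and esrp1 had 395, 8.56 and 5284. Both were picked for nearness to tfap2c, so sharing its course is no separate result. By contrast, 256 names lay within a distance of 1 of tp63, the nearest being chic2 (0.21), the mitochondrial cyclophilin gene ppif (0.21), the histone chaperone gene nasp (0.21), mcee (0.21) and the microtubule gene ckap5 (0.23). Between the 5 genes themselves the closest pairs were gata2a with gata3 (2.29) and tfap2a with tfap2c (2.73), and the most distant was gata3 with tp63 (7.81).

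All 5 genes were matched by symbol in the RefSeq gene table of the GRCz12tu assembly, which gives their neighbours on the chromosome; the files' own build is Zv9, so no coordinates are given. Of the 10 adjacent protein-coding genes 6 were measured. None of the 6 was at least 2-fold higher at germ ring than in 1k-cell embryos, where 16.0% of all genes were. At least 2-fold lower were 2 of the 6, taf3 and mak, where 34.2% of all genes were. So few genes do not tell these counts from the shares of all genes. Beside gata3, taf3, of a general transcription factor, had 1144 at germ ring and 3905 in 1k-cell embryos, a log2 ratio of -1.77. Next to tfap2a, the kinase gene mak had a log2 ratio of -1.02, and next to gata2a, rpn1 one of -0.05. The genes on either side of tp63, tprg1 and tbc1d23, were within 2-fold, at -0.73 and 0.27. In that assembly the span of gata2a overlaps pbrm1 and that of tfap2a overlaps tmem14ca. The counting is not stated to use strand, so reads of overlapping genes cannot be told apart; tmem14ca, listed as tmem14c, had 79.9 at germ ring and 112 in 1k-cell embryos.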

How the data were processed

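The report rests on the RNA tables of 4 of the 19 samples, 1 library per group; titles gave the groups. The deposited values are a normalized signal per gene: per the file headers, the authors scaled read counts with the TMM method. Per the submitters' processing notes, edgeR, the Zv9 build (danRer7) and BWA (0.6.1-r104) were used; no source used here gives the annotation, the counting tool or the strand setting. Every value was a whole multiple of 1 step per library within 0.01 reads, so reads were recovered. Totals were 21138688 reads for sperm, 9241829 for egg, 24256918 for 1k-cell and 14753999 for germ ring. Of 15328 entries with 14244 names, 718 names repeat, and their highest-total entry was taken.

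Log2 ratios used a pseudocount of 1, a floor of 10 in either library and a cutoff of 2-fold (Python 3.11.15, pandas 2.3.3, scipy 1.17.1). Ratio intervals are Clopper-Pearson intervals of recovered reads at 95%, and a fold against no reads is a bound at 3 reads per library. No test was possible. Alternatives were pseudocounts of 0.1 and 5, no floor or one of 50, a 4-fold cutoff, 3 other scalings and summed entries. The ratio step was tested on simulated data. The 5 genes and all lists were chosen with earlier results of these data known. Named genes were the 5, their paralogs (1 is not reported here), the 2 highest and 2 lowest of 3 lists at germ ring against 1k-cell, the 5 nearest genes of each, and the markers a sentence needed. List symbols were matched directly or through RefSeq synonyms that are not the current symbol of another gene. The hMeDIP region lists were not used, since no annotation of their build was at hand.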

Additional observations from a re-analysis of the deposited data

How the results depend on the processing

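The counts of 4 genes higher and 1 lower were the same under every pseudocount, floor and scaling tried and with summed entries. This held at germ ring against the 1k-cell stage and against egg. A 4-fold cutoff left 0 of the 5 genes lower against the 1k-cell stage, where 1457 of 10917 genes were. No call of any of the 5 genes reversed. At the 1k-cell stage against egg, all 5 genes were lower with median-of-ratios scaling, where 33.8% of all genes were. With upper-quartile scaling all 5 were lower too, where 35.1% of all genes were. Under equal-total scaling 4 were lower, where 17.3% of all genes were. At a 4-fold cutoff 1 was lower, where 718 of 10685 genes were. The scalings differ by their factors alone. At a 4-fold cutoff 1 of the 5 was higher in egg against sperm, where 668 of 12443 genes were. Over the alternatives, log2 ratios at germ ring against the 1k-cell stage ranged from 5.82 to 6.59 for gata2a, 7.33 to 8.10 for gata3, 4.38 to 4.95 for tfap2a, 7.26 to 8.02 for tfap2c and -2.22 to -1.37 for tp63. That of tp63 at the 1k-cell stage against egg ranged from -2.08 to 0.09; its highest value came from the third entry alone, an alternative chosen after seeing the data.

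Over all genes, median-of-ratios and upper-quartile scaling gave 3668 and 3325 higher in egg against sperm. At the 1k-cell stage against egg they gave 3246 and 3122 higher and 3683 and 3814 lower. They gave 2408 and 2394 lower at germ ring against the 1k-cell stage, and 3615 and 3719 lower at germ ring against egg. With a 4-fold cutoff the genes higher numbered 668 in egg against sperm, 3825 at the 1k-cell stage against egg, 1117 at germ ring against the 1k-cell stage and 3469 against egg, and those lower 718 at the 1k-cell stage against egg, 1457 at germ ring against the 1k-cell stage and 1149 against egg. Without the sperm library, 1 of the 5 nearest genes of gata2a, 2 of gata3 and none of those of tfap2a, tfap2c and tp63 stayed among the nearest 5. With 5 added in place of 1, 2 stayed for gata2a, 2 for gata3, 5 for tfap2a, 3 for tfap2c and 4 for tp63.

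No paired analysis was possible because each group holds 1 library. The promoter motif alternative was not run, as no promoter sequences were at hand. Depth limits the values that rest on 10 to 33 reads: gata2a and gata3 in the egg and 1k-cell libraries, and tfap2c in the sperm and 1k-cell libraries.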

Other observations

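The gene lists had other counts in the comparisons with egg. Of 18 other ectoderm factors past the floor at germ ring against egg, 10 were at least 2-fold higher and 6 lower, where 48.1% of all genes were higher and 19.8% lower. With median-of-ratios factors 8 of 20 were higher and 9 lower, where the shares of all genes were 34.7% and 32.1%. The zinc finger gene ovol1a, listed as ovol1, had 710.3 in sperm, 351 in egg, 808 in 1k-cell embryos and 5324 at germ ring, its highest value.

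In 1k-cell embryos against egg, 11 of 17 neural factors were at least 2-fold higher and 2 lower, where the shares of all genes were 54.7% and 12.5%; with median-of-ratios factors the counts were 8 and 6, and the shares of all genes 29.8% and 33.8%. Of 24 BMP pathway genes 14 were higher and 2 lower, and those factors gave 11 of 25 higher and 5 lower. The BMP target gene id1 had 20908 at germ ring, against 188 in 1k-cell embryos and 324 in egg. The other Id genes of the list did not share this course. The id2a value was lower at germ ring, with 711 against 3210 in 1k-cell embryos and 1681 in egg. For id3 the values were 1113, 755 and 522, within 2-fold between germ ring and 1k-cell embryos. The BMP signal transducer gene smad5 was within 2-fold between 1k-cell embryos and egg as deposited, with 19920 and 26031, a log2 ratio of -0.39. Median-of-ratios and upper-quartile scaling shift this comparison by -1.28 and -1.34, so that call depends on the scaling.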
